A study of Mus musculus with 4 samples.

Results

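Small nucleolar RNA host genes were followed in mouse colonic epithelium across crypt cells that had diluted or kept a histone label and across crypts with and without induced β-catenin. The 7 genes were Snhg1, Snhg3, Snhg5, Snhg6, Snhg8, Snhg12 and Gas5, out of 18194 genes named on the array. They were listed by name and taken to be every probe set whose only gene symbol was one of theirs, which gave 16 of 45101 probe sets. All 7 genes had at least 1 probe set. The genes were picked from the family of small nucleolar RNA hosts with both differences measured here in view, GFPlow minus GFPhigh and Dox plus minus Dox minus, so these differences are given as a description with no test.

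Expression was measured on 4 arrays of biotin-labelled cRNA from the colon of male mice, with 1 array per group. GFPlow and GFPhigh are colonic crypt cells sorted from H2B-GFP mice, in which a tetracycline-responsive element drives a histone fused to green fluorescent protein. These mice had 7 days of doxycycline labelling and 2 days without it; GFPlow cells had diluted the label by dividing and GFPhigh cells had kept it, so both groups had been exposed to doxycycline. Dox plus and Dox minus are isolated colonic crypts of doxycycline-inducible β-catenin mice; Dox plus mice drank water with 2.0 mg/ml doxycycline over 5 days, and Dox minus mice got none. Dox plus and Dox minus therefore differed in doxycycline as well as in induction, and these cannot be told apart. In what follows the GFP difference is log2 GFPlow minus GFPhigh and the Dox difference log2 Dox plus minus Dox minus. Nothing on strain, age, the number of animals behind each array or the driver of the inducible gene was found in the labels.

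A small nucleolar RNA (snoRNA) host gene carries snoRNAs in its introns. After splicing, the introns are trimmed to free the snoRNAs, which join proteins to form snoRNPs in the nucleolus. Box C/D snoRNAs guide ribose methylation and box H/ACA snoRNAs guide pseudouridylation of ribosomal RNA, and a few take part in cutting its precursor. The exons are joined into a spliced RNA that encodes no known conserved protein, and for several hosts, Gas5 among them, this RNA starts with a terminal oligopyrimidine (TOP) tract, is bound by ribosomes and is removed by nonsense-mediated decay. Transcription of the gene, decay of the spliced RNA and the share of cells that express it all enter an array value, and in crypt samples fewer cells of a type and less RNA per cell cannot be told apart.

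The members differ in their cargo. In the RefSeq mouse annotation the 7 genes hold 26 snoRNA genes between them. Snhg1 on chromosome 19 and Gas5 on chromosome 1 hold 8 each, Snord22 among those of Snhg1 and Snord47 among those of Gas5. Snhg12 on chromosome 4 holds 4, namely Snora16a, Snora44, Snora61 and Snord99. Snhg3, also on chromosome 4, holds Snora73a and Snora73b, the snoRNAs once called U17, which act in cleavage of the ribosomal RNA precursor. Snhg5 on chromosome 9 holds 2, Snhg6 on chromosome 1 holds Snord87, and Snhg8 on chromosome 3 holds Snora24. The array was read for the host RNAs and not for these snoRNAs.

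The starts of the hosts are shown because a TOP tract begins at the first base of the RNA. RefSeq promoter windows (assembly GRCm38.p6) were given for 6 of the 7 genes, Snhg6 being the other one. The sequences run 5′ to 3′ on the gene's strand from 60 bases before the annotated start to 50 bases from it on. They cover chr19:8723427-8723536 (+) for Snhg1, chr4:132353637-132353746 (-) for Snhg3, chr9:88522848-88522957 (-) for Snhg5, chr3:123508287-123508396 (-) for Snhg8, chr4:132308618-132308727 (+) for Snhg12 and chr1:161035106-161035215 (+) for the second of 2 annotated starts of Gas5. Capitals mark the letters TATAAA or TATATA and the longest unbroken run of C and T that touches the 20 bases on either side of the start.
Snhg1: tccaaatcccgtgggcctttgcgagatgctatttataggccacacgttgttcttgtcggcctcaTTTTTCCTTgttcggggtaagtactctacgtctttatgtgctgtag
Snhg3: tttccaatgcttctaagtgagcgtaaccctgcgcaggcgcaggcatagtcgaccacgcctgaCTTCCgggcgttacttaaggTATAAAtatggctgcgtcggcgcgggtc
Snhg5: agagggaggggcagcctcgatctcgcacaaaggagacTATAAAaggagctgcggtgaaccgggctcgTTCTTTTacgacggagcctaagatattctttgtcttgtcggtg
Snhg8: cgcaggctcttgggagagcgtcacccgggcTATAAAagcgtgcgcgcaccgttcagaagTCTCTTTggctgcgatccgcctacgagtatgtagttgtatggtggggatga
Snhg12: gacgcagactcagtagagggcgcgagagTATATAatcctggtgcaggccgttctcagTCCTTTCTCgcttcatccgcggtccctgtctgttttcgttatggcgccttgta
Gas5: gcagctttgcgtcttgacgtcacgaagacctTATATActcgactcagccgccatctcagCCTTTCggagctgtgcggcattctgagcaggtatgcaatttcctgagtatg

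Snhg8 and the second start of Gas5 had a C at the annotated start followed by at least 4 more C or T, a feature of 2.51% of all 32851 promoter windows in the table. Snhg12 began with a run of 6 C or T that opened with T. In Snhg1 and Snhg5 the longest run began 4 and 7 bases after the annotated start, which may not be the exact first base of the RNA. The letters TATAAA or TATATA were searched for on the gene's strand only. They stood between 45 and 15 bases before the start in Snhg5, Snhg8, Snhg12 and the second start of Gas5. Snhg1, Snhg3 and the first start of Gas5 had neither there, and near that Gas5 start the longest run of C and T was 3 bases. Of all windows 2.96% had such letters. The TATA letters were chosen after these sequences were read, so this share carries no further reading. In Snhg3 TATAAA began 22 bases after the annotated start. Over the full windows of 300 bases, searched on both strands, the E-box letters CACGTG, which Myc can bind, were in none of the 7 windows of these 6 genes and in 7.15% of all windows. The letters CTTTGA, the core of the TCF/LEF motif through which β-catenin acts, were in those of Snhg8 and Snhg12, at 117 and 222 bases before the start, and in 16.0% of all windows. These are matches of letters and not binding sites.

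**Figure D1:**
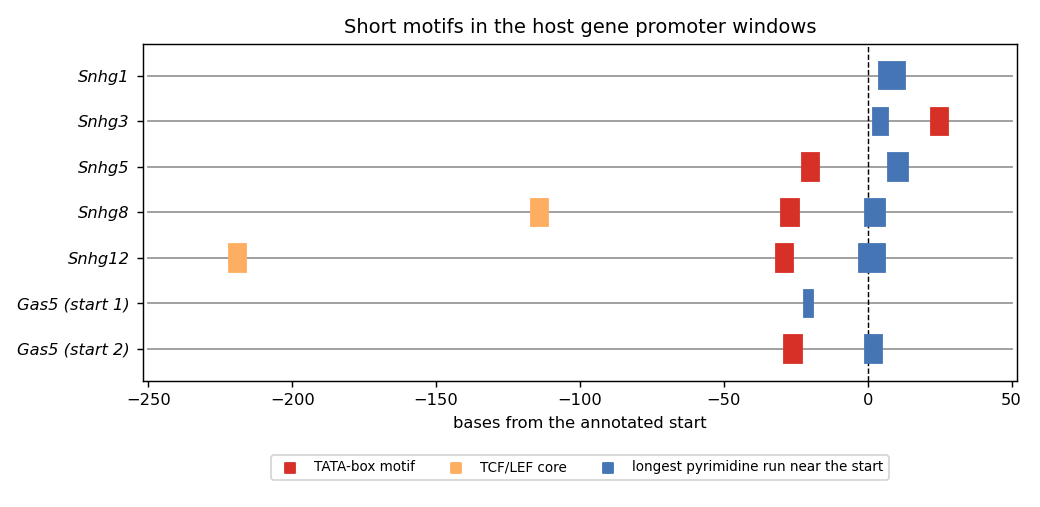
Motif positions in the 7 promoter windows of 6 host genes, in bases from the annotated start (dashed line), with 1 row per window. Red boxes are TATA-box motifs, orange boxes the TCF/LEF core and blue boxes the longest run of C and T near the start; 4 windows have a red box upstream of the start, and in Snhg3 it lies 22 bases downstream.

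The values are log2 expression values on which 1 unit is a doubling. Where a gene had several probe sets, the one highest on average stands for it. Values under 5 were set to 5 because the background model decides them, and a gene counted as measured in a pair when either array reached 5. A difference of at least 1, or 2-fold, was counted. Where 1 array lay under 5 the difference is a lower bound. With no replicates there is no test and no error for any difference. The nearest yardstick is the scatter of differences among probe sets of 1 gene, with a pooled SD of 0.42 (GFP pair, 3712 genes) and 0.41 (Dox pair, 3733 genes). This covers disagreement between probes and not variation between animals. Colon epithelium markers were at or above 5 on all arrays for 10 of 10 genes, with medians between 14.27 and 14.72. Markers of smooth muscle (4 genes), endothelium (4 genes) and red blood cells (2 genes) were under 5 on all arrays. Of the T cell, B cell and fibroblast markers, Cd3e, Cd79a and Col1a1 were under 5 on all arrays while Itgae, Jchain and Vim, among others, were not, and their values are given with the Dox and GFP differences of these lists.

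In GFPlow 6 of the 7 host genes had higher values than in GFPhigh, as did 53.2% of all 9381 measured genes. At least 2-fold higher in GFPlow were Snhg5, Snhg1 and Snhg12, 3 of 7 against 8.81% of all genes, and 0 of 7 were at least 2-fold lower, against 4.3%. The median difference of the 7 genes was 0.81, a 1.75-fold higher value, while that of all measured genes was 0.04. After doxycycline all 7 host genes had higher values in Dox plus, where 55% of all 9537 measured genes did. There 6 of 7 were at least 2-fold higher against 6.93% of all genes, Snhg3 being the exception, and 0 of 7 were at least 2-fold lower against 5.35%. The median difference was 1.39, or 2.63-fold, and that of all measured genes 0.06. Of the 9023 genes measured in both pairs, 37.4% were above 0 in both, as were 6 of 7 hosts, and 2.03% were at least 2-fold higher in both, as were Snhg1, Snhg5 and Snhg12. Since the genes were picked with these values known, the shares are set side by side and carry no further reading.

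**Figure D2:**
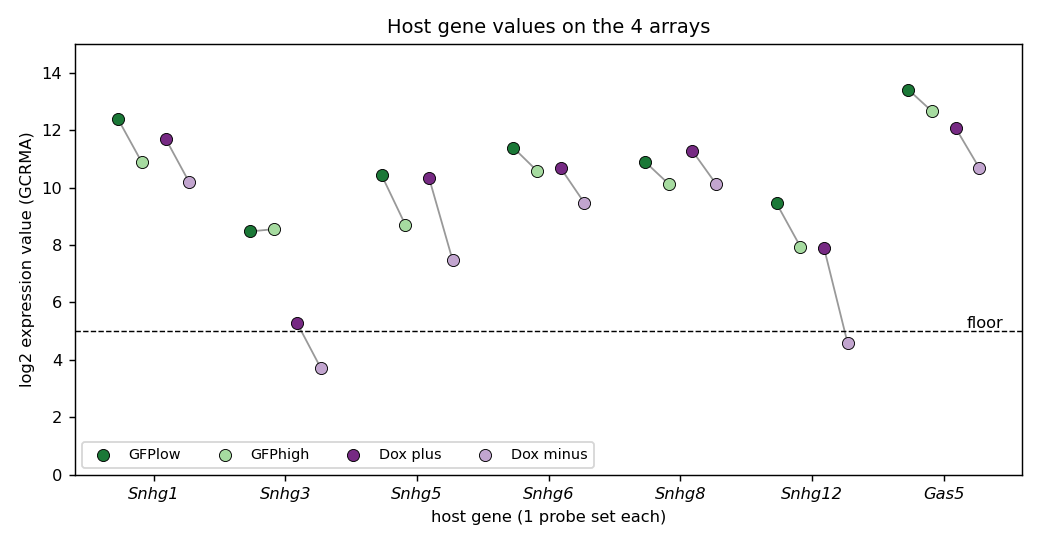
Log2 expression value of each host gene on the 4 arrays, 1 point per array, with a grey line joining the arrays of a pair and a dashed line at the floor of 5. GFPlow lies above GFPhigh in all genes except Snhg3, and Dox plus lies above Dox minus in all 7.

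Snhg5, a host of the U50 snoRNA, showed the largest GFP difference of the 7. Its value was 10.44 in GFPlow and 8.71 in GFPhigh, a difference of 1.73 (3.31-fold). On the Dox arrays it read 10.35 with doxycycline (Dox plus) against 7.47 without (Dox minus), which is 2.88 higher or 7.37-fold. Both arrays of the Dox pair lay above the floor, and the difference ranked 8 among the 9074 genes for which this held. In the GFP pair it ranked 211 of 8917. These values rest on probe set 1428529_at alone, since the other Snhg5 probe sets, 1432737_at and 1432738_at, were under 5 on all 4 arrays.

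Snhg12, which carries mostly H/ACA snoRNAs, had a similar pattern. Its single probe set, 1436040_at, read 9.45 in GFPlow and 7.95 in GFPhigh, a difference of 1.50 (2.83-fold). It read 7.90 in Dox plus, while Dox minus, at 4.57, was under the floor. The difference there was at least 2.90, or at least 7.47-fold. That bound moves with the floor: it is 1.90 at a floor of 6 and 3.33 at a floor of 4, past 2-fold in each case.

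Snhg1, with 8 intronic snoRNAs, had nearly equal differences in the 2 pairs by the probe set that stands for it. Probe set 1433674_a_at read 12.38 in GFPlow and 10.88 in GFPhigh, a difference of 1.50 (2.83-fold). On the Dox arrays it read 11.70 with doxycycline (Dox plus) against 10.18 without (Dox minus), which is 1.52 higher or 2.87-fold. All 5 Snhg1 probe sets were at or above the floor on the 4 arrays and all were higher in GFPlow and in Dox plus. Of them 3 passed 2-fold in GFPlow and 4 in Dox plus. The lowest differences came from 1437658_a_at, which gave 0.03 (GFP) and 0.71 (Dox). The differences of 1454703_x_at were also unequal, 0.90 (GFP) and 1.33 (Dox). Those of 1433675_at (1.44 and 1.54) and 1439399_a_at (1.22 and 1.26) were close. Averaged over the 5 probe sets, the GFP difference was 1.02.

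Gas5, first found as an RNA that builds up in growth-arrested cells, was higher here in GFPlow, the cells that had diluted the label by dividing. Probe set 1419291_x_at read 13.41 in GFPlow and 12.65 in GFPhigh, a difference of 0.76 (1.69-fold). On the Dox arrays it read 12.07 with doxycycline (Dox plus) against 10.68 without (Dox minus), which is 1.39 higher or 2.63-fold. All 4 Gas5 probe sets were higher in GFPlow and in Dox plus. Their GFP differences ran from 0.76 to 1.45, with 2 of 4 past 2-fold, so whether Gas5 passes 2-fold in that pair depends on the probe set. Their Dox differences ran from 1.24 to 1.54, with 4 of 4 past 2-fold. One more probe set is annotated to both Gas5 and Snord47, and another to both Snhg8 and Snora24; neither was used.

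Snhg6 and Snhg8, with a single snoRNA each, had differences close to each other. Snhg6 (1436506_a_at) read 11.39 in GFPlow and 10.59 in GFPhigh, a difference of 0.81. On the Dox arrays it read 10.68 with doxycycline (Dox plus) against 9.47 without (Dox minus), which is 1.21 higher or 2.32-fold. Snhg8 (1435524_at) read 10.90 in GFPlow and 10.13 in GFPhigh, a difference of 0.77. On the Dox arrays it read 11.28 with doxycycline (Dox plus) against 10.13 without (Dox minus), which is 1.15 higher or 2.23-fold. Both were under 2-fold between the sorted fractions and just past it after doxycycline.

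Snhg3, the host of the U17 snoRNAs, was the only member without a higher value in GFPlow. Probe set 1433789_at read 8.47 in GFPlow and 8.55 in GFPhigh, a difference of -0.08. The Dox plus value was 5.27 and the Dox minus value 3.70, the second under the floor, so that the difference is at least 0.27. With values as deposited it would be 1.57, and at a floor of 6 the gene is not measured in that pair. Snhg3 and Snhg12 were the only members with a Dox value under the floor, and both GFP arrays were well above it for both genes. The pairs differ in mice, sorting and possibly array processing, which cannot be told apart.

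**Figure D3:**
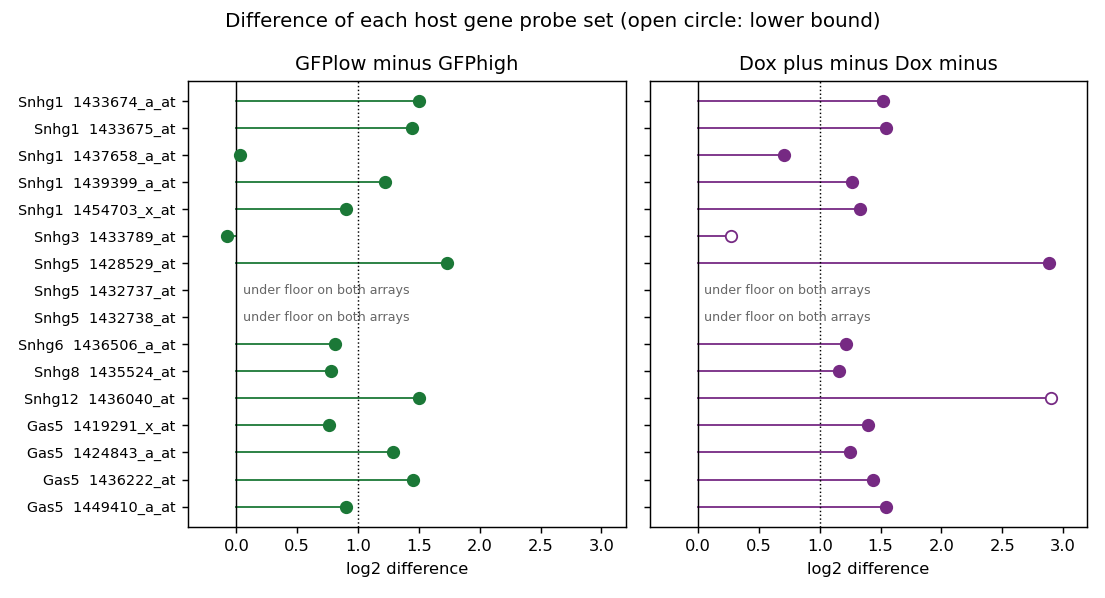
Log2 difference of each of the 16 host gene probe sets, GFPlow minus GFPhigh on the left and Dox plus minus Dox minus on the right, with a dotted line at 2-fold and open circles for lower bounds. The 4 Gas5 and 5 Snhg1 probe sets all lie above 0 in both pairs, and 2 Snhg5 probe sets were under the floor throughout.

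Set against all genes measured in both pairs, Snhg5 and Snhg12 lay in the upper right, Snhg1 below them, Gas5, Snhg6 and Snhg8 close together, and Snhg3 near the middle. The 5 members at or above the floor on all 4 arrays had a median at 0.81 (GFP) and 1.39 (Dox). Gas5 is 1 of these 5 members and its own Dox difference is the Dox median. Its distance of 0.05 from this point therefore comes partly from how the point was set. Among the 8578 genes with such values, leaving out the host genes themselves, the 8 nearest to it in the 2 differences were Ttc21b, a protein of cilia; Nat10, an acetyltransferase that modifies ribosomal RNA; Smarcc1, a subunit of the SWI/SNF chromatin remodeller; Mylip; Dancr, another non-coding snoRNA host; Snd1; the chaperone Hspa4l; and Slc38a7. Their distances from the point ran from 0.03 for Ttc21b to 0.07 for Slc38a7. Dancr differed by 0.82 (GFP) and 1.46 (Dox), and Nat10 by 0.85 and 1.41. Likeness was measured over 2 differences only.

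**Figure D4:**
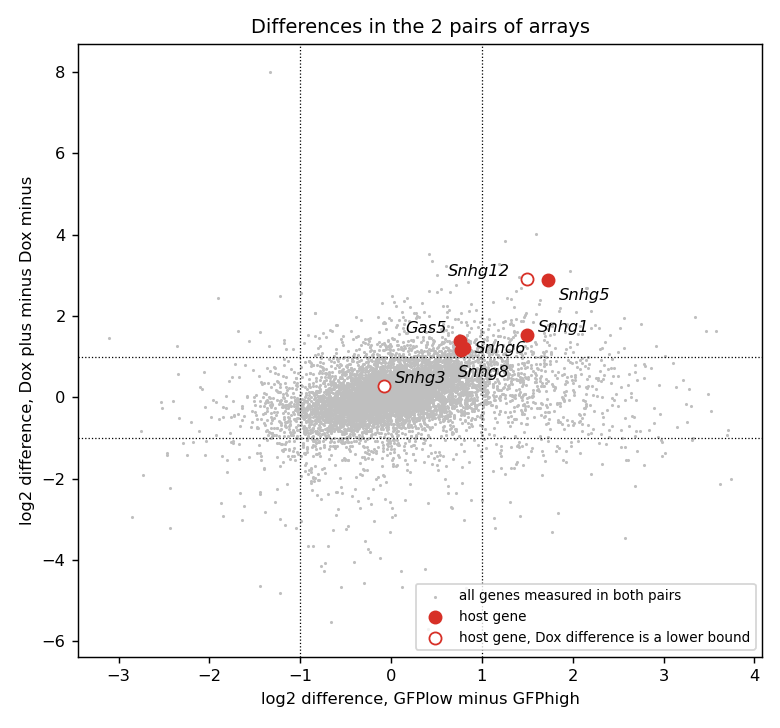
Log2 difference GFPlow minus GFPhigh (x axis) against Dox plus minus Dox minus (y axis) for the 9023 genes measured in both pairs (grey; some are lower bounds) and the 7 host genes (red), with dotted lines at 2-fold in each direction. Open red circles mark Snhg3 and Snhg12, whose Dox differences are lower bounds.

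The neighbours of the hosts in the genome did not all share their values. Slc3a2, the amino acid transporter chain next to Snhg1, differed by 0.14 (GFP) and -0.10 (Dox), while Snhg1 itself passed 2-fold in both pairs. On the other side of Snhg1, Wdr74, a ribosome assembly factor, was past 2-fold in both pairs, by 1.18 in GFPlow and 1.04 in Dox plus. Rcc1, the nucleotide exchange factor of Ran that lies beside Snhg3, differed by -0.33 (GFP) and 1.30 (Dox). Trnau1ap, beside Snhg12, differed by 0.51 and 0.09, and Syncrip, the nearest coding gene on one side of Snhg5, by 0.45 in each pair. Zbtb37, which overlaps the annotated Gas5 gene, was under the floor on all 4 arrays. Mcmdc2, which overlaps Snhg6, had no probe set with a single symbol.

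Most core snoRNP proteins, and fewer of the assembly and associated factors listed with them, were past 2-fold on the same arrays. Of 7 core snoRNP proteins measured, 5 passed 2-fold in GFPlow and 6 in Dox plus, 0 lower in either, with medians of 1.27 and 1.48. Fbl, the methyltransferase of box C/D particles, differed by 1.73 (GFP) and 1.77 (Dox). Nop56 differed by 1.76 and 1.82, Nop58 by 1.27 and 2.45, and Dkc1, the pseudouridine synthase of H/ACA particles, by 1.34 and 1.48. Its partner Nhp2 differed by 1.24 and 1.26. Gar1 was under 2-fold in the GFP pair (0.44) and past it in the Dox pair (1.17), with Nop10 under it in both (0.80 and 0.53). Of 12 assembly and associated factors, 5 passed 2-fold in each pair and 0 were 2-fold lower, with medians of 0.98 and 0.94. Tcof1 differed by 2.15 in the GFP pair but by 0.22 in the Dox pair, Nolc1 by 1.48 and 2.01, and the ATPase Ruvbl1 by 1.20 and 1.51. Znhit6, an assembly factor of box C/D particles, differed by 1.35 and 1.60, and Naf1, one of H/ACA particles, by 1.06 and 1.48. Among those under 2-fold, Coil differed by 0.21 and 0.91, and Shq1, with -0.07 in the Dox pair, was the single one below 0. Ruvbl2, the partner of Ruvbl1, differed by 0.99 in the GFP pair and by 1.17 in the Dox pair.

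The other snoRNA hosts had medians above 0 in both pairs, with most members under 2-fold. Of 14 further non-coding hosts, 10 had a probe set and 7 were measured in each pair, with medians of 0.57 (GFP) and 0.83 (Dox). At least 2-fold higher were 1 of 7 in GFPlow and 2 of 7 in Dox plus, against 8.81% and 6.93% of all measured genes. Snhg10 had a lower value in GFPlow (-0.22). Snhg18 was past 2-fold in GFPlow (1.47) but had a lower value in Dox plus (-0.84), and in Dox plus Snhg16 was at least 2.26 higher and Dancr 1.46 higher. Of 35 protein-coding hosts listed, 23 had a probe set with a single symbol and all of these were measured, some of them ribosomal protein genes. Of the 23, 20 had higher values in GFPlow and 21 in Dox plus, against 53.2% and 55% of all measured genes. The medians of the 23 were 0.38 and 0.52. At least 2-fold higher were 5 in each pair, against 8.81% (GFP) and 6.93% (Dox) of all measured genes. Without _x_at, _s_at and _a_at probe sets, which can match several transcripts, 8 passed 2-fold in Dox plus. By the main choice of probe sets, those past 2-fold in both were Nop56, Dkc1, Ppan (1.31 in each pair) and Rpl12 (1.77 in GFPlow and 1.76 in Dox plus). Nop56 and Dkc1 are also core snoRNP proteins. Rpl12 read 6.82 in GFPlow and 5.05 in GFPhigh, close to the floor, and the GFPlow count was 4 at a floor of 6. The other ribosomal protein genes measured here were under 2-fold in both pairs. Sf3b3 (1.13) passed 2-fold in the GFP pair alone and Ncl, the nucleolar protein nucleolin, (1.17) in the Dox pair alone. TOP mRNAs other than those of ribosomal proteins were above 0 in 14 of 15 genes in the GFP pair and 15 of 15 in the Dox pair, but Nap1l1 alone passed 2-fold (2.10 and 1.55). Their medians were 0.34 and 0.60. Of all measured genes 53.2% (GFP) and 55% (Dox) were above 0. The count past 2-fold, 1 of 15 in each pair, stands beside 8.81% (GFP) and 6.93% (Dox) of all measured genes.

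Factors of nonsense-mediated decay, the route by which several spliced host RNAs are removed, had medians below 0 in both pairs. Of 9 measured, 7 had lower values in GFPlow and 6 in Dox plus, with medians of -0.31 and -0.11. Higher values were found for 2 in GFPlow and 3 in Dox plus, against 53.2% and 55% of all measured genes. Both medians lie inside the probe set SD of 0.42 (GFP) and 0.41 (Dox). In the GFP pair 0 passed 2-fold in either direction; Smg5 (-0.69) and Smg6 (-0.62) lay furthest from 0. In the Dox pair the helicase Upf1 had 7.41 in Dox plus against 6.06 in Dox minus (1.35), and the other 8 lay within -0.36 and 0.42. Upf1 was the 1 of 9 at least 2-fold higher there, against 6.93% of all measured genes.

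**Figure D5:**
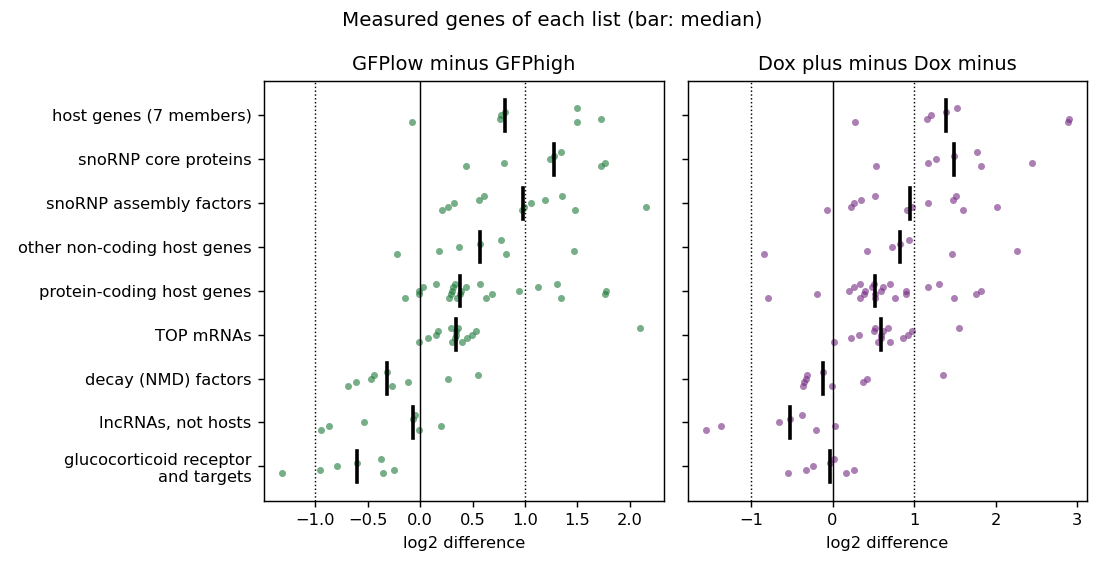
Log2 difference of each measured gene in the host genes and in 8 comparison lists, GFPlow minus GFPhigh on the left and Dox plus minus Dox minus on the right, with a black bar at each list's median and dotted lines at 2-fold; differences with an array under the floor are drawn at their bound. The Dox median is 1.39 for the host genes and 1.48 for the snoRNP core proteins.

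Of 8 Wnt and Myc readouts 5 were past 2-fold in GFPlow and 6 in Dox plus, with medians of 1.28 and 2.26, and at a floor of 6 the GFPlow count was 3 and the GFP median 0.50. Myc, a transcription factor and Wnt target known to drive ribosome production, was higher by 1.46 in GFPlow and by 2.88 in Dox plus. Axin2 differed by 1.32 (GFP) and 2.43 (Dox). Lgr5, a stem cell receptor and Wnt target, was at least 1.25 higher in GFPlow, where the bound rests on the floor since GFPlow read 6.25 and GFPhigh 4.14, and 3.84 higher in Dox plus. Sox9 differed by -0.07 (GFP) and 0.56 (Dox). The proliferation marker Mki67 read 11.85 in GFPlow and 9.68 in GFPhigh, but 10.80 in Dox plus against 11.47 in Dox minus. Over the 7 measured proliferation genes the medians were 2.35 (GFP) and -0.27 (Dox). All 7 had higher values in GFPlow, against 53.2% of all measured genes. In the Dox pair 4 were lower and 3 higher in Dox plus, the higher ones being Mcm3 (0.84), Mcm5 (0.56) and Pcna (0.63). The interferon-stimulated genes had a median Dox difference of -4.57, and 7 of 7 measured were past 2-fold on the lower side, against 5.35% of all measured genes. Among markers of other cells Jchain, of plasma cells, differed by -2.53 or beyond, Vim, of mesenchyme, by -1.78, and Laptm5, of leukocytes, by -1.53. The myeloid list, which holds Laptm5, did not move as one. Of its 4 markers measured in the Dox pair 1 was higher in Dox plus, Lyz2 (0.71), and 3 were lower. Besides Laptm5 these were Ptprc (-0.61) and Csf1r (-0.08). Of 7 fibroblast markers 1 reached 5 in Dox plus and 2 in Dox minus, with a summed level (log2) of 7.47 in Dox plus and 8.82 in Dox minus. Of 6 myeloid markers 4 reached 5 on each of these arrays, with a summed level of 8.25 in Dox plus and 8.81 in Dox minus. Of 5 B and plasma cell markers 0 reached 5 in Dox plus and 1 in Dox minus, with a summed level of 6.11 in Dox plus and 7.93 in Dox minus. Of 5 T cell markers 2 reached 5 on each Dox array, Cd8a and Itgae, with a summed level of 7.51 in both Dox plus and Dox minus. In the GFP pair 3 of 6 myeloid markers reached 5 in GFPlow and 1 in GFPhigh, with a summed level of 7.29 in GFPlow and 6.39 in GFPhigh. The fibroblast sum was 7.05 in GFPlow and 6.94 in GFPhigh, that of B and plasma cell markers 5.76 in GFPlow and 6.05 in GFPhigh. The T cell sum was 6.97 in GFPlow and 6.32 in GFPhigh, where Itgae, an integrin of intraepithelial lymphocytes, was the one marker to reach 5 and read 6.53 in GFPlow and 5.50 in GFPhigh (1.03). The part of these in the host gene differences was not tested.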

How the data were processed

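The authors deposited log2 values for 45101 probe sets on 4 arrays. GCRMA, which subtracts a sequence-based background and summarises probes, is named in the submitters' processing notes, with no version and no word on which arrays were run together. That the scale is log2 follows from the range of the values, 0.47 to 16.27. A platform annotation gave 34958 probe sets 1 symbol, 932 several and 9211 none; 34754 matched a current RefSeq gene table, with 0 symbols changed. From the deposited log2 values, a floor of 5, 1 probe set per gene, differences within each pair and counts at 2-fold were computed with Python 3.11.15 and pandas 2.3.3. No test is possible with 1 array per group, and precision is limited by the number of arrays.

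The members, lists and naming rule were chosen with earlier results of these data known. The rule names every member, list genes past 2-fold or furthest from 0, the 8 nearest genes, the neighbours and a few Wnt, proliferation and marker genes. The TATA letters and the windows for pyrimidine runs were chosen after the sequences were read. The 7 alternatives were floors of 4 and 6, no floor, quantile and loess scaling of a pair (span 0.4), the mean of a gene's probe sets, and omission of _x_at, _s_at and _a_at probe sets. Scripts were tested on simulated data.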

Additional observations from a re-analysis of the deposited data

How the results depend on the processing

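No paired analysis was possible because each group has 1 array, and no replicate could be left out. A value was taken as unmoved when it shifted by less than the probe set SD (0.42 in the GFP pair, 0.41 in the Dox pair). Of 95 differences of single host genes under the 7 alternatives, 88 were unmoved, 7 moved and 0 changed sign after passing 2-fold. The moves were those of Snhg12 (1.90 at a floor of 6, 3.33 at a floor of 4 and without a floor), Snhg3 (1.27 at a floor of 4 and 1.57 without a floor, both past 2-fold) and, in the GFP pair, Snhg1 (1.02 as the mean of probe sets) and Gas5 (1.45 without _x_at, _s_at and _a_at probe sets). The same omission left 6 host genes, since Snhg6 has only an _a_at probe set, and moved their GFP median to 1.44. The count of host genes at least 2-fold higher was 3 to 4 in GFPlow and 5 to 7 in Dox plus. Of 154 comparison list medians 153 were unmoved, and of 308 list counts 300 stayed within 1.5 times. The balance of all called genes in the Dox pair was 56.4% higher as deposited and 47.3% after quantile scaling. The low range, where background decides the value, limits Snhg3 and Snhg12 in the Dox pair.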

Other observations

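Long non-coding RNAs that are not snoRNA hosts are given for comparison. Of 7 measured in each pair, 6 had lower values in GFPlow and 6 in Dox plus, with medians of -0.06 and -0.52, and 0 were past 2-fold in the GFP pair. In each pair 1 of 7 was above 0, against 53.2% (GFP) and 55% (Dox) of all measured genes. At least 2-fold lower in Dox plus were 2 of 7, against 5.35%. The GFP median is well inside the probe set SD of 0.42. Dleu2 was the one above 0 in the GFP pair (0.20) and Tug1 the one above 0 in the Dox pair (0.04). In the Dox pair, Malat1, a nuclear RNA of speckles, had 6.66 in Dox plus against 8.22 in Dox minus (-1.55), and Mir22hg, the host of a microRNA, 8.99 in Dox plus and 10.36 in Dox minus (-1.36). The same Malat1 probe set read far higher on the GFP arrays, 13.88 in GFPlow and 14.42 in GFPhigh. Why it differs between the pairs was not tested. Neat1, the scaffold of paraspeckles, differed by -0.87 (GFP) and -0.38 (Dox). When probe sets of a gene were averaged, 1 of these genes rather than 2 was at least 2-fold lower in Dox plus. The count was also 1 without _x_at, _s_at and _a_at probe sets. The Malat1 values above come from an _a_at probe set, which this omission removes, while those of Mir22hg do not. After the omission Mir22hg was therefore still past 2-fold and Malat1 was not. Which gene it was after averaging cannot be told from the count.

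Gas5 RNA is known from human cells as a decoy for the glucocorticoid receptor, so the receptor and its targets are given beside it. All 7 measured genes had lower values in GFPlow, where Gas5 was higher, with a median of -0.60. Of all measured genes 53.2% were above 0 in that pair. Dusp1 (-0.25), Nr3c1 and Klf9 (-0.38) lay inside the probe set SD of 0.42. At least 2-fold lower was 1 of 7, against 4.3% of all measured genes. The kinase gene Sgk1 passed 2-fold, with 12.25 in GFPlow and 13.57 in GFPhigh (-1.32), and Tsc22d3 differed by -0.96, Fkbp5 by -0.79 and the receptor gene Nr3c1 by -0.36. In the Dox pair, where Gas5 was higher as well, 3 of 7 were above 0 and 4 below, with a median of -0.03 and 0 past 2-fold, and Fkbp5 differed by 0.26. Of all measured genes 55% were above 0 there. Whether Gas5 has any part in these values was not tested.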
